A study of Ovis aries with 6 samples.

Results

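The regions described here are the low-methylated regions of sheep chromosome 20 from 24 to 29 Mb, a span of 5 Mb that is expected to hold the major histocompatibility complex. They were chosen by merging the authors' 4 region lists (unmethylated regions, UMRs, and low-methylated regions, LMRs, each listed once for fetal tissue and once for lambs) where entries overlapped, and keeping merged regions whose midpoint lies in the span. This gave 474 of the 154851 merged regions of the 26 autosomes, to which the 6 entries of the authors' differentially methylated region (DMR) lists in the span were added. The data are whole-genome bisulfite sequences of perirenal adipose tissue, the fat around the kidney, from 6 wild-type pure-bred Merino sheep that received no treatment. Tissue of the 3 fetal animals dates from 132 days post conception and is labelled brown. The 3 lambs are 89 days old after birth by the sample labels and 80 days by the series text, and their fat is labelled white. Each sample is a separate animal. The sample descriptions end in TV for all fetal animals and in VEH for all lambs, so whatever these tags mean cannot be told apart from stage. In bulk tissue a change in the mix of cells and a change of methylation within a cell also cannot be told apart. DNA methylation holds no transcript levels, so the labels brown and white could not be checked against marker genes here.

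The major histocompatibility complex is a gene-dense stretch that holds the class I and class II genes, whose products present peptides to T cells. Between them lies the class III stretch, with complement components and the cytokine genes TNF and LTA, among many genes that every cell uses. Its class I and class II genes come in near-identical copies that differ between animals, which makes short reads hard to place there. UMRs are stretches almost free of methylation, most often CpG-dense promoters, while LMRs are CpG-poor stretches of intermediate methylation that often mark enhancers. A DNA methylation valley (DMV) is an unmethylated stretch of several kilobases. Of 40 listed genes of the complex, 37 were found in a RefSeq gene table of a newer sheep assembly, all of them on chromosome 20, with OVAR-DRB1 of class II and NOTCH4 before TNF and LTA, and POU5F1, MOG and GABBR1 after them. That assembly has other coordinates, so no region below is tied to a gene, exon or promoter. All positions are on chromosome 20 of the build Oar_v3.1.

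The span was rich in unmethylated regions. UMRs listed in both stages numbered 105, or 21 per Mb, against 13.0 per Mb on the rest of chromosome 20 and 7.94 per Mb on the other autosomes. They made up 22.2% of the span's regions, against 15.2% on the rest of the chromosome. LMRs of both stages numbered 180, or 36 per Mb, fewer than the 43.5 per Mb on the rest of the chromosome and more than the 30.0 per Mb on the other autosomes. A further 11 regions were a UMR in 1 stage and an LMR in the other, 89 were LMRs of the fetal list only, 83 LMRs of the lamb list only, 5 UMRs of the fetal list only and 1 a UMR of the lamb list only. In all, the regions covered 17.6% of the bases of the span, against 9.79% on the rest of the chromosome. These are counts of 1 deposited list per stage, with no replicates behind them.

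The shared UMRs lay together in the middle of the span, where 81 of the 105 (77.1%) fell between 26 and 28 Mb. Regions of all classes numbered 92, 52, 124, 119 and 87 in the 5 successive Mb. In bins of 100 kb the count ran from 0 to 20 with a median of 9. The 2 densest bins, 26.3 to 26.4 Mb and 27 to 27.1 Mb, held 20 regions each. The first of them had 8 shared UMRs and 6 shared LMRs, with 20.7 CpG positions per kb, against 11.3 per kb over the whole span. The second had 5 shared UMRs and 7 shared LMRs. The bins at 27.8, 26.6 and 26.4 Mb followed with 18, 17 and 16 regions. The map of region counts, coverage and methylation shows that this middle block is itself broken by a stretch with few reads, from 27.6 to 27.8 Mb.

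**Figure D1:**
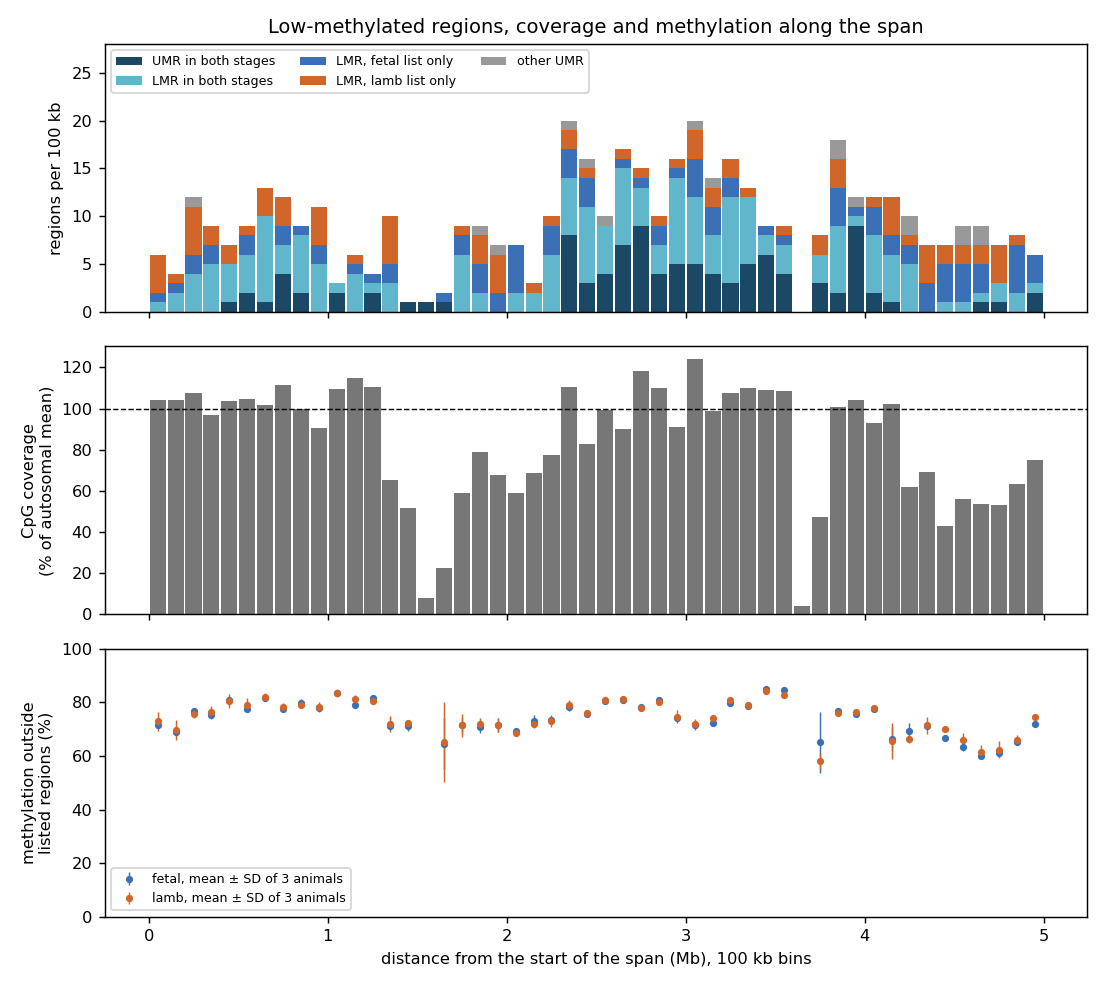
Low-methylated regions per 100 kb by class (top), mean CpG coverage as a percentage of the autosomal mean (middle) and methylation outside all listed regions as mean ± SD of 3 animals per stage (bottom, bins with at least 50 usable CpGs), against distance from the start of the span in Mb. Region counts peak at 20 in 2 bins of the middle block, coverage falls to 4.10% of the autosomal mean in the lowest bin, and both stages lie close together outside the regions.

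Coverage was uneven along the span, and the length and the sharing of the regions moved with it. Mean coverage of a CpG in the span was 88.5% to 95.5% of the same animal's autosomal mean over the 6 animals, against 104% to 108% on the rest of chromosome 20. No animal had a read at 11.6% of the span's CpG positions, against 4.30% on the rest of the chromosome. A CpG with at least 1 read in each of the 6 animals, called usable here, was found at 77.3% of positions, against 89.1%. Of the 50 bins of 100 kb, 17 had under 70% of the autosomal coverage. They lay from 25.3 to 25.8 Mb, from 25.9 to 26.2 Mb, from 27.6 to 27.8 Mb and from 28.2 to 28.9 Mb. Whether copies in the genome assembly, differences between animals or the mapping gave this pattern was not tested.

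The longest regions were those with the fewest reads. Of the 26 regions of the span longer than 5 kb, 15 (57.7%) had under 50% of the autosomal coverage, against 19% of 100 such regions on the rest of the chromosome. Of the 8 longer than 10 kb, 7 did, and so did all 3 longer than 20 kb. Over all lengths 38 of the 474 regions did, which is 8.02% (95% Wilson interval 5.90% to 10.8%, counting error only), against 3.00% (2.52% to 3.58%) on the rest of the chromosome. All 5 UMRs of the fetal list only and the single UMR of the lamb list only were among them. Regions with under 50% coverage were listed in a single stage in 23 of 38 cases (60.5%), the others in 155 of 436 (35.6%). The same shares on the rest of chromosome 20 were 55.5% and 30.9%, so the difference was not confined to the span.

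**Figure D2:**
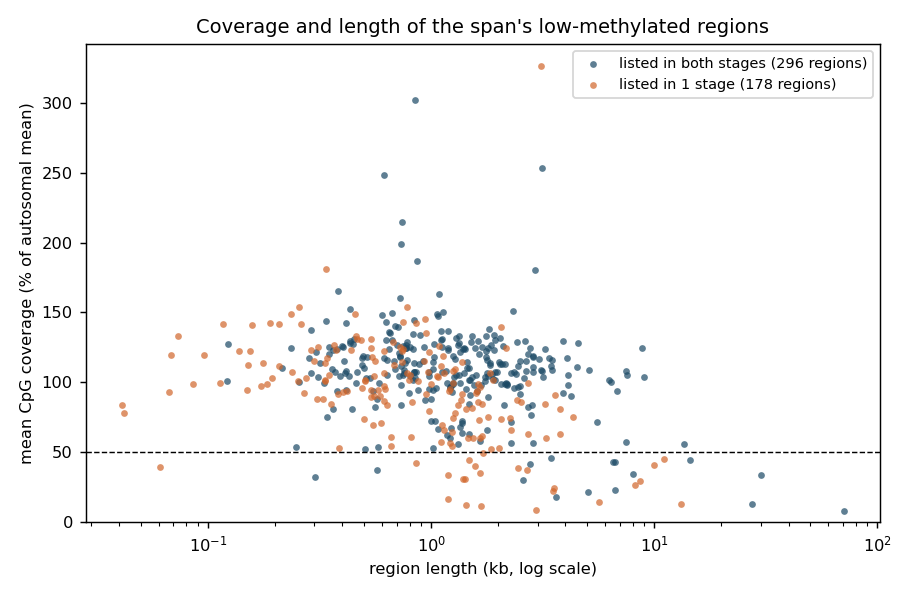
Mean CpG coverage as a percentage of the autosomal mean (vertical axis) against region length in kb on a log scale (horizontal axis), 1 point per region, for 296 regions listed in both stages and 178 listed in 1. Under the dashed line at 50% lie 38 regions, among them all 3 longer than 20 kb.

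The longest UMR of both stages, chr20:25599056-25670152, spanned 71097 bases and 352 CpG positions, of which 241 (68.5%) had no read in any animal and 19 were usable. Its coverage was 7.63% of the autosomal mean. Levels at the 19 usable CpGs were 38.7%, 12.9% and 5.36% in fetuses 1 to 3 and 7.87%, 17.6% and 28.6% in lambs 1 to 3. The animals of each stage thus ranged widely and the stages overlapped. The fetal DMV chr20:25636651-25642050 inside it had 23 CpG positions and none usable, with between 0 and 41 summed reads per animal, so no level was given. The second longest, chr20:28656640-28686672, spanned 30033 bases with 40 of 112 CpGs usable at 33.5% coverage. It stood at 37.0%, 37.9% and 38.1% in the fetuses and 39.0%, 38.7% and 47.4% in the lambs. The third, chr20:25564203-25591496, had 13 of 142 CpGs usable over 27294 bases. The fourth, chr20:28720779-28735274, stood at 39.0% ± 3.22 in fetuses and 44.1% ± 2.51 in lambs (SD, n = 3 here and below). The second and the fourth had the highest mean levels of all 105 shared UMRs, 39.7% and 41.6%, although they are listed as unmethylated.

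The longest UMRs with full coverage had most of their CpGs usable. Among them chr20:27360196-27368992, of 8797 bases, ran from 9.17% to 30.5% over the 6 animals and is described further below. The UMR chr20:27388853-27397812, of 8960 bases with 266 of 275 CpGs usable, stood at 13.4%, 9.58% and 11.9% in fetuses and 13.97%, 12.5% and 11.3% in lambs. It holds the fetal DMV chr20:27388851-27395450 but for 2 bases, which stood at 8.88% ± 1.88 and 9.87% ± 1.26 over 207 usable CpGs and is listed in fetal tissue alone. The UMR chr20:25063382-25070892, of 7511 bases, varied least between animals among the 8 longest. Its levels were 6.75%, 7.09% and 6.98% in fetuses and 6.11%, 6.90% and 7.05% in lambs over 198 usable CpGs. The span's single lamb DMV, chr20:26648551-26653650, lay in the UMR chr20:26647420-26655469 and had 30.9% of the autosomal coverage. At its 69 usable CpGs of 248 it stood at 2.05% ± 0.320 in fetuses and 1.41% ± 0.648 in lambs. The third fetal DMV, chr20:28599751-28605350, had 3 usable CpGs and 14.7 reads per animal, too few to describe.

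Levels of the shared regions followed their class, which the lists fix. Over the 105 shared UMRs the mean level of the 6 animals ran from 1.64% to 41.6% with a median of 6.82%, and 32 (30.5%) lay under 5%, against 22.8% of 601 tested on the rest of the chromosome. The lowest was chr20:26783220-26785633, with 121 usable CpGs, at 1.73% ± 0.462 in fetuses and 1.56% ± 0.894 in lambs. Next were chr20:26667068-26669046 at 1.21% ± 0.395 and 2.34% ± 0.627, and chr20:26986702-26989139 at 1.69% ± 1.502 and 2.09% ± 0.774. Over the 179 shared LMRs with enough reads to test, the mean level ran from 5.24% to 55.2% with a median of 30.6%, against a median of 33.5% on the rest of the chromosome. LMRs of the fetal list only had a median of 42.3% and those of the lamb list only 41.5% over both stages. Shared UMRs had a median of 3.73 CpGs per 100 bases and shared LMRs 1.45, against 3.70 and 1.84 on the rest of the chromosome.

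Pooled over all usable CpGs, the shared UMRs and LMRs of the span were less methylated than those of the rest of chromosome 20 in each of the 6 animals. Shared UMRs stood at 9.43%, 9.03% and 8.69% in fetuses and 9.72%, 9.65% and 8.97% in lambs, and lay 1.11 points below the rest of the chromosome on average: the difference was -1.11 points (SD 0.345 over 6 animals, range -1.53 to -0.700; exact sign-flip permutation test, two-sided, p = 0.03125). Shared LMRs stood at 28.7%, 28.9% and 27.9% in fetuses and 28.9%, 28.5% and 28.4% in lambs, with a difference of -2.32 points (SD 0.919, range -3.87 to -1.36; exact sign-flip p = 0.03125). Outside all listed regions the span stood at 77.2% ± 0.453 in fetuses and 77.2% ± 0.902 in lambs, with a difference of -2.65 points (SD 0.298, range -2.90 to -2.08; exact sign-flip p = 0.03125). This p is the smallest that 6 animals allow. The test asks whether the animals agree on the same sets of CpGs. It does not measure how other stretches of 5 Mb stand to their own chromosomes. The span also had fewer CpGs per kb than the rest of the chromosome, 11.3 against 12.8, and the lower coverage given above, and their part in these differences was not tested. The size of the UMR difference moved with the coverage asked of a CpG: it was -1.67 points with at least 3 reads in each animal, -2.92 with at least 5 and -0.640 with each CpG weighted equally. Without the regions of under 50% coverage, a choice made after seeing the data, it was -1.42 points for UMRs and -2.24 for LMRs.

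Against the other autosomes the order was another for UMRs. The span's shared UMRs differed from those of the other autosomes by 0.0341 points (SD 0.332, range -0.357 to 0.475, higher in 4 of 6 animals; exact sign-flip p = 0.78125), so no difference was detected in either direction. Shared LMRs lay below those of the other autosomes by -2.51 points (SD 0.821) and the rest of the sequence by -1.42 points (SD 0.336), each in 6 of 6 animals with exact sign-flip p = 0.03125. In all, 8 differences of this kind were computed, with 5 at the smallest p. The last Mb had the lowest background. Outside listed regions the Mb from 28 to 29 stood at 70.1% ± 1.66 in fetuses and 70.04% ± 1.82 in lambs, against fetal means of 77.4% to 78.3% in the other 4. Its shared regions stood at 25.8% ± 0.584 and 26.1% ± 1.58, against fetal means of 12.2% to 17.7% elsewhere. This Mb also had the lowest coverage, 72.1% of the autosomal mean, and 6.54 CpGs per kb. Without this Mb, a choice made after seeing the data, the span outside the lists lay at -1.94 points from the rest of the chromosome (SD 0.219, range -2.20 to -1.58, lower in 6 of 6 animals; exact sign-flip p = 0.03125). The part of coverage and CpG density in the level was not tested.

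**Figure D3:**
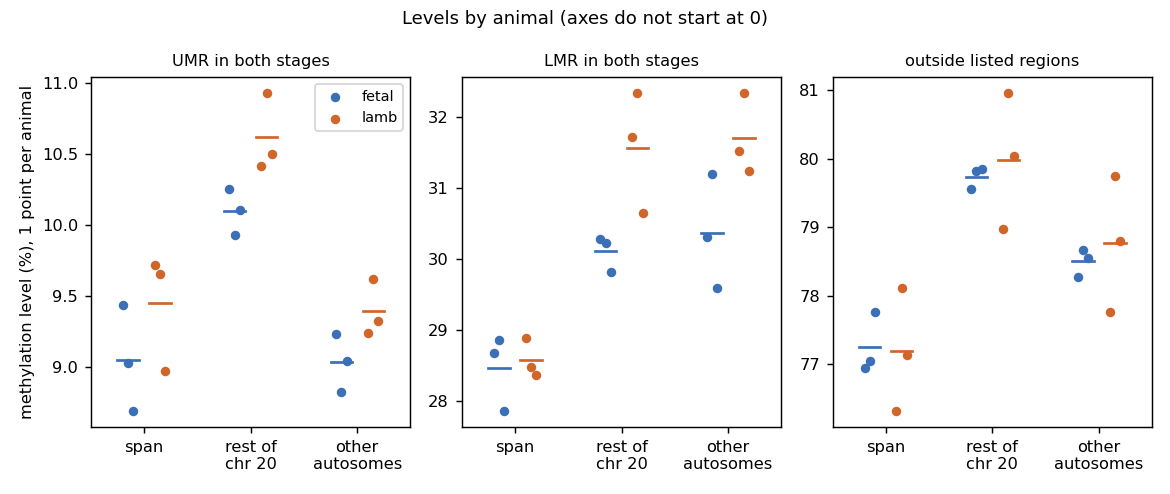
Methylation level in percent of each animal (points, with the stage mean as a line) in UMRs of both stages, LMRs of both stages and CpGs outside listed regions, for the span, the rest of chromosome 20 and the other autosomes; the axes do not start at 0. In all 3 panels each animal of the span lies below its own level on the rest of chromosome 20, by 1.11, 2.32 and 2.65 points on average.

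Between the stages the pooled levels of the span were close. Regions listed in both stages stood at 14.2%, 13.8% and 13.6% in fetuses and 14.5%, 14.7% and 13.9% in lambs over 10309 usable CpGs, a difference of 0.510 points (exact permutation test, two-sided, p = 0.2, where 3 animals against 3 cannot go below 0.1). It was 0.239 points with each CpG weighted equally and -0.0511 over the regions whose entries of both stages overlapped by 50% reciprocally. Outside the lists the difference was -0.0638 points (p = 1, exact permutation). Its sign turned without fetal animal 3 (0.196) and without lamb 1 (0.375). Shared UMRs differed by 0.398 points (exact permutation p = 0.3). For shared LMRs the difference was 0.110 points (exact permutation p = 0.8) with overlapping stages, while on the rest of chromosome 20 it was 1.46 points, from 30.1% ± 0.255 to 31.6% ± 0.855, with no overlap (exact permutation p = 0.1). Each animal's LMR level in the span minus that on the rest of the chromosome was -1.61, -1.36 and -1.97 points in fetuses and -2.84, -3.87 and -2.28 in lambs. These did not overlap, and differed by -1.35 points (exact permutation p = 0.1, the smallest possible; a comparison chosen after seeing the data). The plot of levels by animal shows lambs above fetal animals in LMRs outside the span and mixed with them inside it.

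Region by region, no low-methylated region of the span was called different between stages. A call needed an adjusted p under 0.05 (quasi-binomial test, Benjamini-Hochberg over 151428 autosomal regions) and stage means 10 or more points apart. Of the 474 regions 457 had the 3 usable CpGs and 10 reads per animal asked for, and 0 of them were called, where 0.0337% of all autosomal regions were. Limma and edgeR also called 0. At an unadjusted p under 0.05 stood 36 of the 295 tested regions listed in both stages (12.2%), beside 10.4% of all such autosomal regions; limma gave 20 and edgeR 31. Higher in lambs were 21 of them (7.12%, beside 7.00%) and lower 15 (5.08%, beside 3.39%). The animals of both stages did not overlap in 49 (16.6%, beside 13.9%). These shares are near the background. The median difference over the 295 regions was -0.0714 points, with quartiles of -2.74 and 3.58, beside a median of 0.770 over all 95991 autosomal regions of this kind. By class, 12 of 105 shared UMRs (11.4%), 21 of 179 shared LMRs (11.7%) and 3 of 11 regions that change class (27.3%) were at an unadjusted p under 0.05. The same shares over all autosomes were 13.4%, 8.85% and 31.6%.

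The regions with the smallest p in each direction are described next, although none passed the adjusted threshold. The UMR chr20:26409358-26410335 had the smallest p among those higher in lambs. All of its 95 CpGs in 978 bases were usable, with 630 reads per animal. Its levels were 35.1%, 31.6% and 30.5% in fetuses and 42.8%, 41.5% and 42.2% in lambs, a difference of 9.75 points (quasi-binomial adjusted p = 0.0875). The lambs lay within 2 points of each other and all above the fetal animals. Of the 95 CpGs 72 were higher in lambs. Outside it the sides differed. Within 1 kb before it 7 of 18 CpGs were higher in lambs, and within 1 kb after it 81 of 105, of which 43 lie among the 50 CpGs of the next listed region and 38 among the other 55. The next region, chr20:26410374-26410684, begins 38 bases further on, is a UMR of the fetal list and an LMR of the lamb list, and holds 50 CpGs in 311 bases. It stood at 44.7%, 32.4% and 41.1% in fetuses and 48.6%, 61.1% and 45.5% in lambs (adjusted p = 0.212). Both lie in 1 CpG-dense stretch of intermediate methylation, 9.71 and 16.1 CpGs per 100 bases, where shared UMRs had a median of 3.73, and are not independent examples.

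Other regions higher in lambs were mostly LMRs. The LMR chr20:25790933-25791774 stood at 24.1%, 27.3% and 13.9% in fetuses and 37.2%, 36.4% and 30.9% in lambs, with 15 of its 21 CpGs higher (adjusted p = 0.193). The LMR chr20:26608868-26610051 stood at 32.7% ± 4.65 and 44.3% ± 2.43. The LMR chr20:27581534-27583298 was at 13.7% ± 2.25 and 21.1% ± 4.67, and the UMR chr20:26300338-26302522 at 23.4% ± 4.01 and 33.6% ± 5.70. In each of these 4 the stages did not overlap, and the adjusted p of the last 3 ran from 0.217 to 0.240.

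**Figure D4:**
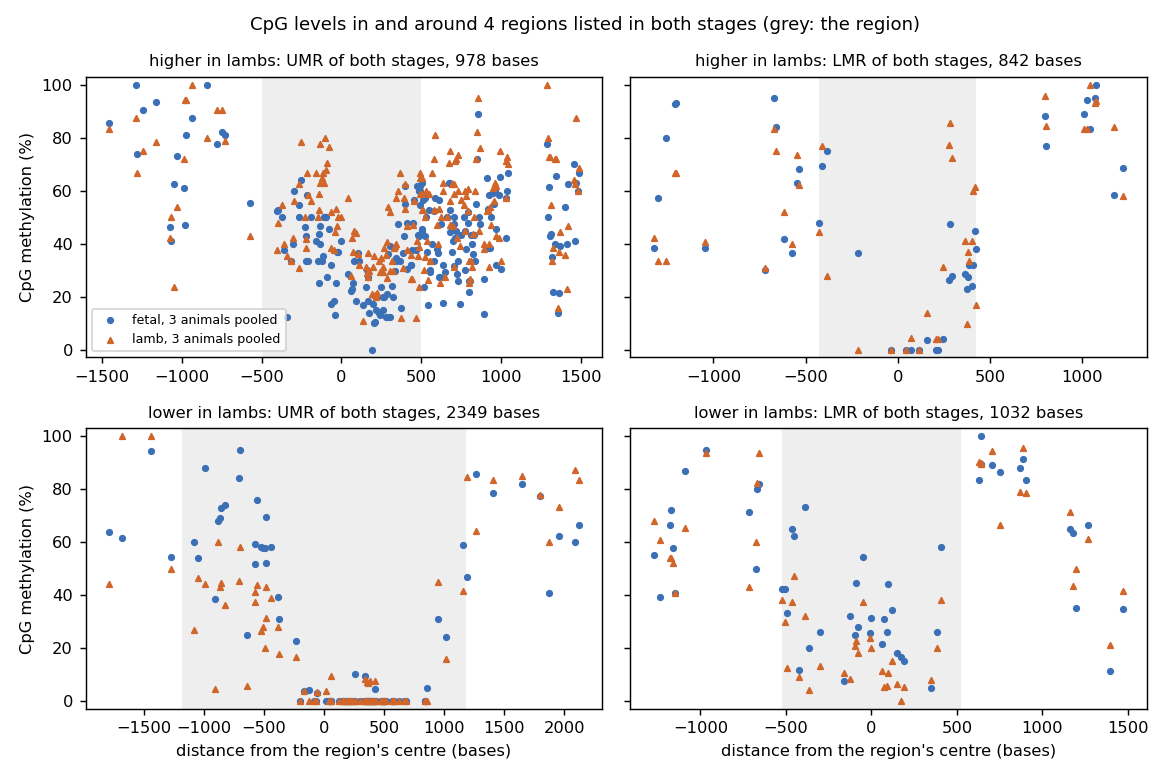
Methylation of single CpGs in percent, reads of the 3 animals of a stage pooled, against distance in bases from the centre of the 2 regions per direction that show most (grey: the region as listed). The top left UMR is higher in lambs at 72 of 95 CpGs. The bottom left UMR is lower in lambs mainly on its left edge, and the bottom right LMR is lower at 25 of 27 CpGs.

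The smallest p of all shared regions belonged to the UMR chr20:27820176-27822524, which was lower in lambs. It stood at 20.1%, 20.4% and 19.5% in fetuses and 12.3%, 5.28% and 12.7% in lambs over 81 usable CpGs, a difference of -9.92 points (adjusted p = 0.0861). The fetal animals were within 1 point of each other, and every lamb was lower. Most of the difference lay on 1 edge. In the first 900 bases, with 22 usable CpGs and 156 reads per animal, levels were 54.5%, 71.9% and 57.4% in fetuses and 37.6%, 19.3% and 42.7% in lambs. In the remaining 1449 bases, with 59 usable CpGs, both stages were nearly unmethylated, at 3.32% ± 0.775 and 2.53% ± 1.46. This edge, drawn after the profile was seen, contains the authors' DMR chr20:27820524-27820828, so the region is not independent of the DMR lists.

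The LMR chr20:26393236-26394267 was lower in lambs along its whole length. Its levels were 37.2%, 31.9% and 27.2% in fetuses and 17.7%, 14.8% and 20.6% in lambs, a difference of -14.4 points (adjusted p = 0.106), and 25 of its 27 CpGs were lower. It ends 15.1 kb before the CpG-dense stretch that was higher in lambs, so nearby regions went in opposite directions, although none of them was called different. The LMR chr20:27339301-27340143 stood at 39.4% ± 3.55 and 27.1% ± 6.41 without overlap (adjusted p = 0.185). Among the regions that change class, chr20:28551704-28557250 stood at 51.6% ± 2.75 and 35.4% ± 9.65 and chr20:27943327-27945779 at 37.1% ± 5.23 and 25.5% ± 4.13, both listed as UMRs in lambs and as LMRs in fetal tissue. The LMR chr20:27119096-27120096 showed a larger mean difference, -18.6 points, but overlapped: fetal animal 3 stood at 6.35%, within the lambs' range of 1.92% to 11.0%. Of all 11 regions that change class 10 were lower in the stage that lists them as a UMR, which the lists themselves select for.

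Regions listed in a single stage were chosen by the lists for a difference, and their values are a description. The 94 of the fetal list (86 with enough reads) had a median difference of 10.3 points, with 78 lower in fetal animals. The 84 of the lamb list (76 with enough reads) had a median of -8.51 points, with 67 lower in lambs. Listing in a single stage did not mean separate animals: the stages did not overlap in 19 of the 86 (22.1%) and 10 of the 76 (13.2%). Over all autosomes 27.1% of regions of the fetal list only and 22.8% of those of the lamb list only did not overlap. Most rested on few CpGs, a median of 6 positions in LMRs of either list. The largest difference of the lamb list was at chr20:27809142-27809324, at 100%, 86.8% and 44% in fetuses and 22.2%, 41.9% and 58.1% in lambs, over 6 CpGs and with overlap. The best covered of those named, chr20:27297192-27297726 with 17 CpGs and 146 reads per animal, stood at 54.2%, 65.5% and 54.7% in fetuses and 29.02%, 39.3% and 33.6% in lambs. The other 3 named were chr20:28289288-28290266, at 65.6% ± 4.86 and 40.7% ± 13.02, and chr20:24736410-24736644, at 62.5% ± 3.67 and 40.9% ± 12.7, both without overlap, and chr20:27855392-27855459, at 63.2% ± 17.1 and 41.4% ± 10.5 with overlap. In the other direction, chr20:28840829-28842075 stood at 22.2%, 39.1% and 21.1% in fetuses and 73.2%, 51.1% and 53.6% in lambs over 5 CpGs. The fetal LMRs chr20:28039002-28039210 and chr20:27074687-27074894 likewise had no overlap, at 38.6% ± 9.47 and 65.4% ± 7.64, and at 34.6% ± 14.4 and 58.8% ± 8.60. In chr20:25672544-25673788, at 29.6% ± 20.4 and 57.1% ± 32.2, and in chr20:26036364-26036913, at 23.7% ± 15.4 and 50.3% ± 20.4, the animals of both stages overlapped. The fetal UMR chr20:28595833-28605850, which holds the third fetal DMV, stood at 45.9%, 25.4% and 37.6% in fetuses and 55.4%, 54.8% and 63.5% in lambs, with 17 of 43 CpGs usable.

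Of the authors' 6 DMRs in the span, 3 are in the hyper list and 3 in the hypo list. The sources used here do not say how they were called, so their values are a description too. Each held 3 to 8 usable CpGs. Only chr20:27820524-27820828 (hypo) separated the stages, at 54.7%, 78% and 63.8% in fetuses and 44.6%, 4.17% and 33.3% in lambs. The hyper DMRs chr20:27403457-27403605 and chr20:27519151-27519495, both in shared UMRs, stood at 41.4% ± 7.84 and 57.5% ± 8.75, and at 45.4% ± 24.8 and 71.2% ± 7.53. In the second of these fetal animals 1 to 3 stood at 23.7%, 40% and 72.4%, and the third reached the lambs' 63.0% to 77.8%. The hyper DMR chr20:27158500-27158563, which lies in no listed region, went from 51.4% ± 4.94 to 59.2% ± 3.70. The hypo DMR chr20:26361537-26361653 in a shared UMR went from 55.3% ± 14.1 to 48.4% ± 25.9. The hypo DMR chr20:27314066-27314218, 1142 bases from the nearest region, stood at 88.8% ± 1.84 and 92.6% ± 6.95, so its mean was higher in lambs, against the direction of its list.

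Windows outside the lists were also near the background. Of 2460 windows of 1 kb in the span that touch no listed region, 139 (5.65%) had an unadjusted p under 0.05, beside 5.71% of all autosomal windows of this kind, with 74 higher and 65 lower in lambs. None was called (0 windows; background 0.00122%), and the smallest adjusted p was 0.394. Limma gave 96 windows at an unadjusted p under 0.05 and edgeR 121, and the autosomal shares for these 2 tools were not computed. The 5 windows with the smallest p went both ways. The window chr20:27246001-27247000 stood at 72.1%, 69.7% and 67.6% in fetuses and 82.5%, 81.6% and 82.4% in lambs over 29 CpGs. The window chr20:24728001-24729000 stood at 72.8% ± 8.502 and 85.5% ± 2.39 and chr20:26234001-26235000 at 49.1% ± 8.88 and 70.3% ± 13.5. Lower in lambs were chr20:24700001-24701000, at 87.9% ± 1.21 and 74.2% ± 10.5, and chr20:27792001-27793000, at 67.5% ± 13.0 and 37.7% ± 23.4, where the animals overlapped.

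In 1 UMR with many usable CpGs, animals of the same stage stood far apart. The shared UMR chr20:27360196-27368992, of 8797 bases with 227 usable CpGs and 1842 reads per animal, stood at 10.0%, 25.2% and 9.17% in fetuses and 30.5%, 20.9% and 10.9% in lambs. Its stage means were 14.8% and 20.8% (quasi-binomial unadjusted p = 0.0431, adjusted p = 0.350), and its mean within-stage SD was 9.42 points. Of the 4941 autosomal shared regions with at least 100 usable CpGs it ranked 4 by this SD, whose median was 1.04. The next of the 23 such regions in the span had 2.90. Coverage was 125% of the autosomal mean. Region and measure were singled out after their values were seen.

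The spread was widest in a 1.5 kb piece, chr20:27364196-27365695, with 49 usable CpGs and 516 reads per animal. There fetal animals 1 to 3 stood at 17.7%, 53.7% and 13.3% and lambs 1 to 3 at 56.2%, 44.6% and 20.6%. Fetal animal 2 and lambs 1 and 2 thus lay between 44.6% and 56.2%, and the other 3 between 13.3% and 20.6%, with both stages on either side. In the 500 bases with most reads, chr20:27364696-27365195, the range over animals was from 5.13% to 59.9%. The same 3 animals were also highest past the piece. At chr20:27365696-27366195 they stood at 13.9%, 11.9% and 11.1%, and the others between 1.27% and 3.09%. The last 2797 bases of the region, from 27366196 on, were lower in all animals, between 2.34% and 9.63%. There fetal animal 2 and lambs 1 and 2 were again highest, at 6.90%, 9.63% and 5.77%, though not in each bin of 500 bases. At chr20:27367696-27368195 they stood at 7.29%, 17.7% and 12.7%, and the others between 0% and 0.898%. Whether the animals' genotypes differ there was not tested. Coverage of the piece was 156% of the autosomal mean.

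**Figure D5:**
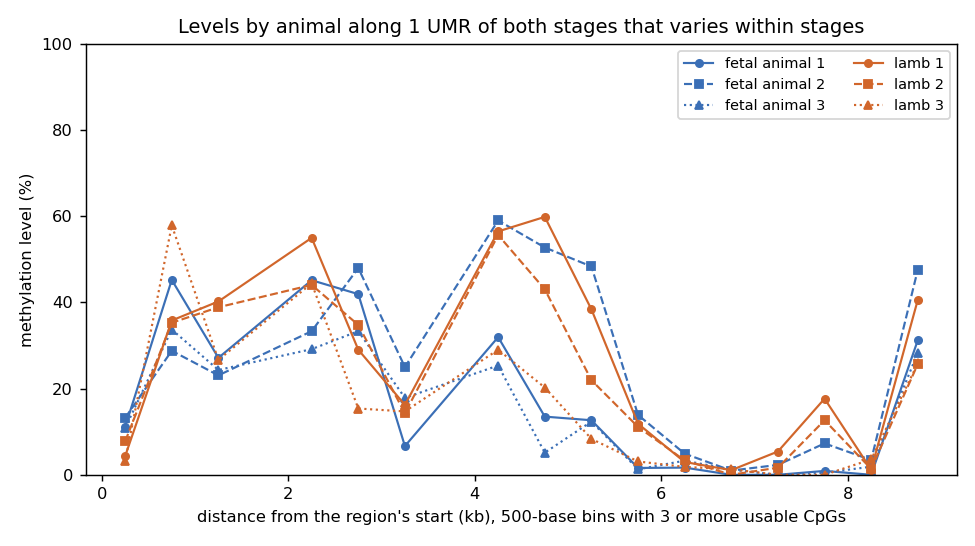
Methylation level in percent of each of the 6 animals along the UMR chr20:27360196-27368992, in bins of 500 bases with at least 3 usable CpGs, against distance from the region's start in kb. From 4 to 6 kb fetal animal 2 and lambs 1 and 2 lie above the other 3 animals. From 6 kb on most bins of all 6 are low, and the same 3 animals lie highest in some of them.

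The other regions with a wide spread within stages had few reads. The 5 with the largest SD among regions of at least 5 usable CpGs held 5 to 7 usable CpGs each. In chr20:27783854-27785178 fetal animals stood at 64.5%, 5.71% and 88% and lambs at 44.4%, 17.3% and 34.8%. In chr20:27752778-27755051 fetal animal 3 stood at 83.6%, and the other 5 animals between 9.09% and 34.2%. The shared LMR chr20:25398668-25399029 ran from 16.7% to 63.8% in fetuses and from 22.2% to 69.8% in lambs. The regions chr20:25310666-25311614 and chr20:25672544-25673788 had SDs of 29.1 and 26.3 points. Over the whole span such spread was near that elsewhere: of CpGs with at least 5 reads in each animal, 1.17% had 2 animals of a stage 80 or more points apart (95% Wilson interval 0.997% to 1.37%), against 1.02% on the rest of the chromosome and 1.19% on the other autosomes. Inside the regions the share was 0.522% (0.330% to 0.824%), and in the rest of the span 1.41% (1.19% to 1.67%). The regions are listed for low levels, and the part of level in this difference was not tested. These separate shares were not computed for other parts of the genome. Among regions with at least 10 usable CpGs the median SD was 1.67 points in shared UMRs and 5.05 in shared LMRs. It was 1.86 and 5.73 on the rest of the chromosome, and 1.68 and 5.60 on the other autosomes.

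At the other end of coverage, 17 regions (3.59%) had over 150% of the autosomal mean, and 9 of them lay between 26.9 and 27.2 Mb. The highest were the lamb LMR chr20:27149832-27152944 at 326%, the shared LMR chr20:27046963-27047806 at 302% and the shared UMR chr20:27036328-27039458 at 253%. That UMR stood at 12.6%, 15.3% and 15.8% in fetuses and 14.96%, 11.7% and 12.0% in lambs, with overlap. Of the 13 listed in both stages 1 (7.69%) had an unadjusted p under 0.05, beside the 10.4% of all autosomal regions given above. With CpGs of over 3 times the median summed coverage left out, again 0 regions were called and 36 shared regions and 139 windows had an unadjusted p under 0.05. The autosomal shares for that setting were not computed. The span then lay at -1.11 points from the rest of the chromosome in shared UMRs, -2.87 in shared LMRs and -2.57 outside the lists.

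The edges of the span are positions and not steps in the data. Just inside them lie the lamb LMR chr20:24052536-24053508, at 46.3% ± 6.98 in fetuses and 38.5% ± 4.72 in lambs, and the shared UMR chr20:28992450-28993495, at 3.03% ± 1.91 and 1.39% ± 0.726. Just outside lie the fetal LMR chr20:23985358-23987214, at 41.2% ± 33.3 and 56.2% ± 8.00, and the shared UMR chr20:29009070-29010877, at 8.69% ± 1.64 and 9.33% ± 2.16. The 2 stages' lists matched unevenly in the span. Of 117 fetal and 115 lamb UMRs, 95.7% and 99.1% overlapped an entry of either kind in the other stage, against 99.5% and 99.7% on the rest of the chromosome. Of 281 fetal and 283 lamb LMRs, 68.3% and 70.7% did, against 76.0% and 78.5%. On the other autosomes the UMR shares were 99.4% and 99.4%. The LMR shares there were 70.5% and 74.6%, nearer to the span than those of the rest of the chromosome.

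Mean coverage of an autosomal CpG was 5.22 to 8.00 reads per animal, so precision differs between regions. Tested shared UMRs of the span carried a median of 478 reads per animal and LMRs of a single stage about 36. Reads are not marked by molecule, so intervals cover counting error alone.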

How the data were processed

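The table deposited by the authors gives, per CpG position and animal, whole-number counts of methylated and covering reads; per the series design text, reads were mapped to Oar_v3.1. The submitters' processing notes also name BWA, Picard and the build hg19, without roles; the sources used here do not name the methylation caller, the filters or the way the UMR, LMR, DMV and DMR lists were called. The lists the authors deposited hold positions only.

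A level is summed methylated over summed covering reads at CpGs with at least 1 read in each animal. Regions and 1 kb windows with at least 3 such CpGs and 10 summed reads per animal were fitted on all autosomes with a logistic quasi-binomial model, the dispersion moderated as in limma's squeezeVar (prior 1.83 on 12.1 degrees of freedom for regions, 1.51 on 33.0 for windows) and not below 1. Limma on the log2 ratio of methylated to unmethylated reads (pseudocount 1) and edgeR's quasi-likelihood test with a term per animal were alternatives. The code was tested on simulated data. Single values were compared by exact tests, two-sided.

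Regions were named by rule: every DMR, those overlapping a DMV, the 8 longest shared UMRs, the 6 smallest p per direction among shared regions, the 5 largest differences per stage among regions of 1 list, the 5 largest within-stage SDs, 5 windows and the 5 densest bins; edges, the lowest levels, high coverage, class-changing regions and pieces of regions were added after seeing values. Members, lists and rules were chosen with earlier results of these data known. Neither the sequence nor gene models of that build were used. Python 3.11.15 (numpy 2.4.6, scipy 1.17.1, pandas 2.3.3, matplotlib 3.10.9) and R 4.3.3 (limma 3.58.1, edgeR 4.0.16) were used.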

Additional observations from a re-analysis of the deposited data

How the results depend on the processing

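No region was called under any alternative run. Shared LMRs carried a median of 77.5 reads per animal, and the power of the test by class was not measured. The count of shared regions at an unadjusted p under 0.05 fell from 36 to 19 with at least 5 reads in each animal (210 tested) and to 20 with limma; the windows fell from 139 to 74 with at least 5 reads (1175 tested). Leaving out each animal gave 26 to 38 regions and 139 to 148 windows. The autosomal shares at an unadjusted p under 0.05 were computed for the main run alone. For the alternatives, a move of the span's counts thus cannot be told from a move over all autosomes. The share of list entries overlapped in the other stage fell from 77.6% to 64.1% with 50% reciprocal overlap, and with that overlap the stage difference of shared regions was -0.0511 points. Outside the lists the stage difference turned to 0.0143 (at least 3 reads), 0.168 (at least 5) and 0.406 (equal weight per CpG), and ran from -0.526 to 0.375 leaving out each animal; the cause was not tested. The span minus the rest of chromosome 20 ran from -1.19 to -1.02 (UMRs), -2.51 to -2.01 (LMRs) and -2.76 to -2.60 (outside) leaving out each animal, where the exact sign-flip test of 5 animals cannot go below p = 0.0625. With the replicate number as a block (replicate block) 0 regions were called, 37 regions and 125 windows had an unadjusted p under 0.05, and the stage differences had exact sign-flip p = 0.25 for shared regions and 1 outside. Deviations from the stage mean had correlations of -0.000121 to 0.0213 between same-numbered animals and -0.0207 to 0.0147 between other numbers. Counting error enters these deviations and can hide a weak pairing, so they do not settle whether the numbers pair the animals.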
